A study of Mus musculus with 12 samples.

Results

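Old and young female mice that had both received morphine were compared: 3 libraries of prefrontal cortex from 20-month-old mice (old morphine) against 3 from 4-month-old mice (young morphine). They were picked from 12 libraries by age and treatment as labelled, and the 6 left over, 3 of old and 3 of young mice given saline, served as a second age comparison with no library in common. All mice were C57BL/6JN females, an inbred strain, morphine was given at 3 mg/kg into the peritoneum, and how long after the injection tissue was taken was not given in the sources available. The series' title names the question as how age changes the effect of morphine on the frontal cortex transcriptome. RNA was sequenced after depletion of ribosomal RNA, so the values are for total RNA of whole tissue, in which fewer cells of a type and less RNA per cell cannot be told apart. The labels do not say whether the replicates were separate animals, and p-values therefore measure the spread between these samples.

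Morphine relieves pain mainly through the mu opioid receptor, a receptor that couples to inhibitory G proteins and quiets neurons. The ageing rodent cortex is known for higher RNA levels of immune and glial activation genes and for lower levels of genes that serve growth of neuronal processes and the making of new oligodendrocytes. Clustered protocadherins, which recur below, are adhesion proteins whose combinations on the cell surface let a neuron tell its own branches from those of others. The share of G and C bases in a transcript (its GC share) is known to affect how well its fragments are copied and amplified during library preparation, to a degree that can differ from library to library.

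In old morphine mice the clustered protocadherin genes Pcdhga2, Pcdhb2, Pcdhb6, Pcdhb9 and Pcdhb14, the immune genes Igkc and Casp1 and the pseudogene Nlrp5-ps were higher than in young morphine mice. Marcksl1, Dpysl3 and Nrep, which serve growing neurons, Gpr17, a receptor of newly forming oligodendrocytes, and Lypd1 and Cyp26b1 were lower. These genes passed the test with and without removal of a smooth trend on GC share and transcript length, fitted to each library. A much larger set, of 1558 genes, passed only when the trend was left in. Splicing factor and zinc finger genes were among those higher, and genes of synaptic adhesion, ion channels and nuclear-encoded oxidative phosphorylation among those lower. The median GC share was 41.64% for the higher and 57.97% for the lower genes of that set.

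Of 16796 genes tested with edgeR's quasi-likelihood test, 1621 passed a Benjamini-Hochberg adjusted p of 0.05 when no trend was removed, which is 9.65% of all genes: 828 were higher in old morphine mice (4.93%) and 793 lower (4.72%). With the trend removed, 69 passed (0.411%), 50 higher (0.298%) and 19 lower (0.113%). At an unadjusted p of 0.05 the counts were 4431 and 2103. Of the 69, 63 were among the 1621, and their median absolute log2 fold change was 0.557 in the first fit and 0.597 in the second. For the 1558 genes that passed only without the removal, the median absolute change went from 0.309 to 0.131, and 91 of them changed sign. The median change over all genes was 0.014 and 0.010. The young and old groups did not overlap in 1546 of the 1558 genes as measured and in 833 with the trend removed. Over all genes tested 33.09% and 20.8% had no overlap. As the 1558 were chosen for a small p in these same libraries, their separation is no separate result, as measured or with the trend removed.

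These sets differed in base composition. Across the 14440 genes with a mean of at least 1 CPM (counts per library total after scaling), Spearman's correlation of the log2 fold change with GC share was -0.6575 before and -0.0078 after removal, and that with length 0.1737 and 0.031. These correlations describe genes measured in the same libraries, which are not independent points. The values after removal are near 0 by construction, as the trend was fitted to the same genes in these libraries. With genes ordered by GC share into 5 bins of equal size, the poorest bin ran from 30.81 to 44.42%, and there 617 genes passed as higher and 2 as lower without removal. In the richest bin, from 55.8 to 73.85%, 10 passed as higher and 583 as lower. The same bins held 9 and 3 calls, and 10 and 3 calls, with the trend removed.

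The trend was carried by single libraries to different degrees. From the mean of all 12 libraries, the poorest bin minus the richest bin stood at -0.251, -0.099 and -0.125 on the log2 scale in young morphine replicates 1, 2 and 3, and at 0.167, 0.143 and 0.391 in old morphine replicates 1, 2 and 3. Every young morphine library thus read GC-poor genes lower and every old morphine library read them higher, with young morphine replicate 1 and old morphine replicate 3 farthest out. In saline mice the same quantity ran from -0.180 to 0.008 in young and from -0.078 to 0.111 in old libraries, so that those ranges overlapped. Because the trend separates the morphine groups completely, a difference in base composition of the RNA between old and young mice and a difference in library preparation cannot be told apart, and the removal takes out both.

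**Figure D1:**
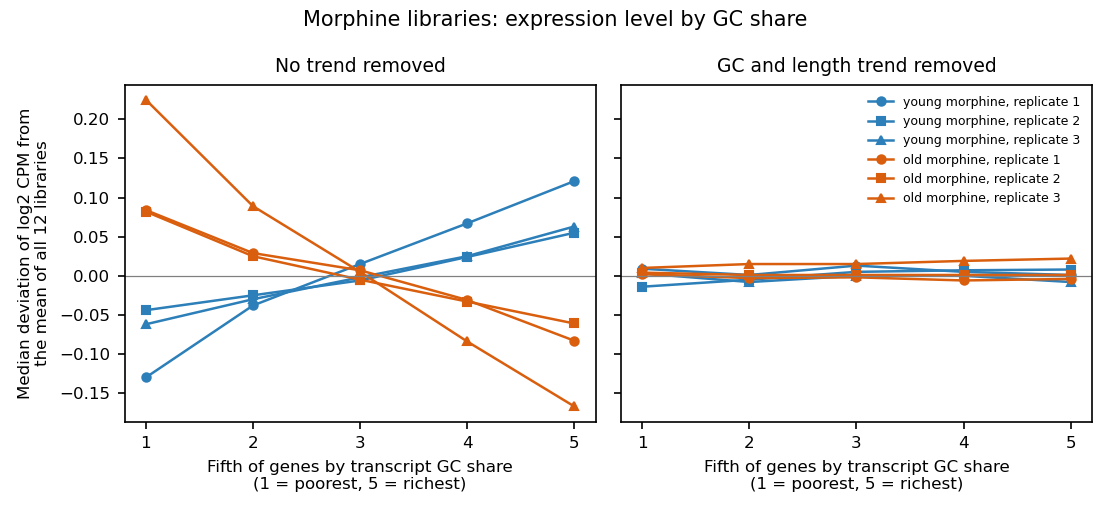
Median deviation of log2 CPM from the mean of all 12 libraries (vertical axis) in 5 bins of genes ordered by transcript GC share (horizontal axis), for the 3 young (blue) and 3 old (orange) morphine libraries, before (left) and after (right) removal of the trend. On the left, old morphine replicate 3 runs from 0.225 in the poorest bin to -0.167 in the richest and young morphine replicate 1 from -0.130 to 0.121. On the right every value lies between -0.014 and 0.022, which follows from fitting the trend to these libraries.

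Coding starts of 4 genes show what GC-poor and GC-rich mean here. The first 90 coding bases of the most abundant coding transcript of each are given 5′ to 3′ from GENCODE M21 (build GRCm38), with G and C in capitals. Stag2 and Gnb2 lost their calls with the removal, in opposite directions, Casp1 kept its call and Junb gained one.
Stag2: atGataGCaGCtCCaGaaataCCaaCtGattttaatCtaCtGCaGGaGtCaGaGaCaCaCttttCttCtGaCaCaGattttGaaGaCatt
Casp1: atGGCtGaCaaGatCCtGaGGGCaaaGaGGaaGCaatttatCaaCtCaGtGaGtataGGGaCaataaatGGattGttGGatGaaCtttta
Gnb2: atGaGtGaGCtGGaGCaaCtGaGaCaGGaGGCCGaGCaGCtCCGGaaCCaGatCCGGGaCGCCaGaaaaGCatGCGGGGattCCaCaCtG
Junb: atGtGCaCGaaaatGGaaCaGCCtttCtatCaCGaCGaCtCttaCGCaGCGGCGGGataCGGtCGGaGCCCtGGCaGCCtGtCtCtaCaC
Over these stretches 34 of 90 bases were G or C in Stag2, 35 in Casp1, 54 in Gnb2 and 51 in Junb, and over the whole transcripts the GC share was 38, 41.1, 59.9 and 62.6%.

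Stag2 (chromosome X, 42149317 to 42277185, GRCm38), a subunit of the cohesin ring that holds chromatin loops, was at 68.1, 68.3 and 68.1 CPM in young and 83.6, 86.3 and 91.7 CPM in old morphine replicates 1 to 3, without overlap. Its log2 fold change of 0.36 ± 0.05 (SE) with adjusted p = 0.00328 became 0.06 ± 0.06 with adjusted p = 0.738. Gnb2 (chromosome 5, 137528127 to 137533510), a G protein beta subunit, was at 176, 173 and 167 CPM in young and 135, 137 and 136 CPM in old morphine mice. Its change went from -0.34 ± 0.05 (adjusted p = 0.00284) to -0.12 ± 0.05 (adjusted p = 0.312). Slc22a17 (chromosome 14, 54906304 to 54913132), a transporter-like receptor for lipocalin with a GC share of 62%, had the smallest p of the genes that lost their call under the naming rule. Its levels were 350, 353 and 346 CPM in young and 258, 258 and 253 CPM in old morphine mice, and its change went from -0.45 ± 0.05 (adjusted p = 0.000574) to -0.20 ± 0.05 (adjusted p = 0.0942). The groups of Slc22a17 and Gnb2 remained apart after removal, and those of Stag2 overlapped.

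**Figure D2:**
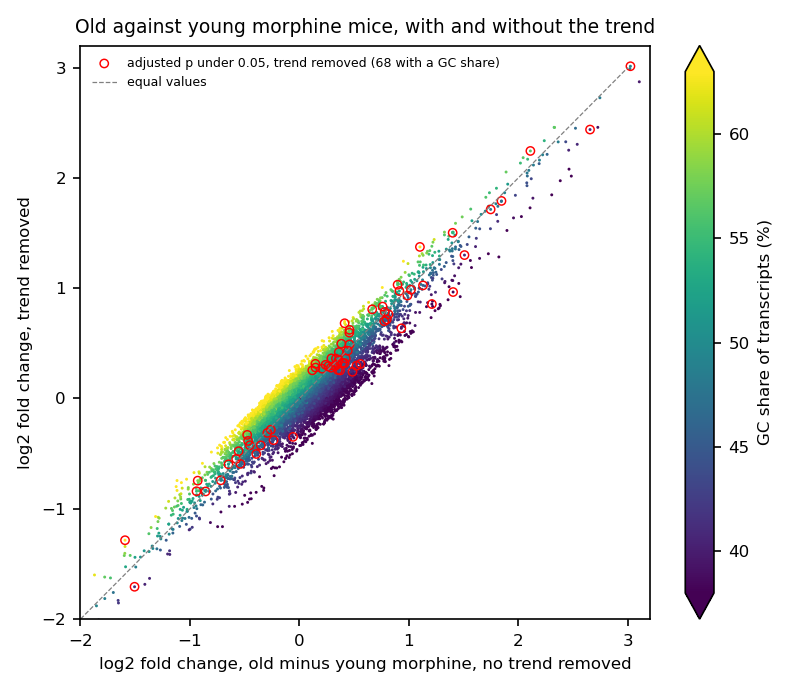
Log2 fold change of each gene, old minus young morphine mice, without (horizontal axis) and with (vertical axis) removal of the GC and length trend, coloured by GC share in percent; red rings mark the 68 genes with a GC share that passed an adjusted p of 0.05 with the trend removed, and the dashed line marks equal values. GC-rich genes lie above the line and GC-poor genes below it, and 43 genes lie beyond the axes.

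Clustered protocadherins. These genes sit in 3 neighbouring arrays on chromosome 18, and the gamma members share their last exons. Reads of near-identical members of any array may be divided among them in ways that cannot be seen here. Of 56 members tested, 20 were higher and 1 lower (Pcdhgc5) in old morphine mice without removal, where 4.93% of all genes were higher. With the trend removed 8 were higher and 0 lower, where 0.298% of all genes were higher. The 8 were Pcdhb2, Pcdhb6, Pcdhb9, Pcdhb13, Pcdhb14, Pcdhga2, Pcdhga7 and Pcdhga9. The list's median log2 fold change was 0.333 before and 0.285 after removal, and 46 of the 56 values were positive.

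Pcdhga2 (chromosome 18, 37668953 to 37841870), of the gamma array, was at 18.4, 16.9 and 21.6 CPM in young and 33.9, 31.2 and 30.8 CPM in old morphine mice. All 3 old libraries lay above all 3 young ones, but all 63 genes called in both fits had no overlap between the groups. Its mean rose from 19 ± 2.44 to 32 ± 1.66 CPM (SD, n = 3 each), and its log2 fold change was 0.76 ± 0.10 without (adjusted p = 0.00189) and 0.83 ± 0.09 with removal (adjusted p = 0.000743). Pcdhb2 (chromosome 18, 37294812 to 37297624), of the beta array, was at 5.2, 4.69 and 5.84 CPM in young and 10.1, 9.81 and 11.8 CPM in old morphine mice, and rose by 1.02 ± 0.14 and 0.99 ± 0.13. Pcdhb14 (chromosome 18, 37447656 to 37456350) has a GC share of 39.1% and moved more with the removal. It was at 16.8, 17.7 and 18.2 CPM in young and 34.3, 32.2 and 34 CPM in old mice, and its change went from 0.93 ± 0.08 to 0.64 ± 0.10 (adjusted p = 0.00895). Pcdhb6 and Pcdhb9 rose by 0.93 and 0.76 with the trend removed. The count of 8 fell to 1 without young morphine replicate 2 and to 5 without old morphine replicate 3. Of 12 protocadherins outside the arrays, 0 passed with the trend removed, where 0.411% of all genes did. Pcdh8 alone, at -0.40, passed as lower without removal, where 4.72% of all genes did.

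Immune and glial genes. Igkc (chromosome 6, 70726435 to 70726966), the constant region of the immunoglobulin kappa light chain made by B-lineage cells, had the largest rise under the naming rule. It was at 1.13, 0.454 and 0.412 CPM in young and 7.94, 3.99 and 3.58 CPM in old morphine mice, with replicate 1 the highest of each group. The log2 fold change was 3.02 ± 0.45 without (adjusted p = 0.005) and 3.01 ± 0.47 with removal (adjusted p = 0.0283). Of the 10 genes of lymphocytes and MHC class II, Igkc was the only one called in either fit, where 4.93% and 0.298% of all genes were higher. The list's median was 0.605 with the trend removed. The summed level of that list was 29.49, 19.76 and 26.82 CPM in young and 57.59, 35.5 and 31.48 CPM in old mice. The sum of blood cell markers was 586.4, 294.7 and 298.9 CPM in young and 464.9, 159.5 and 352.6 CPM in old mice. Of these 12 markers 0 were called in either fit, where 9.65% and 0.411% of all genes passed. The median log2 fold change of these markers was 0.939 without and 0.766 with removal, where 8 of 12 values were positive. The part of either list in the rise of Igkc was not tested.

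Casp1 (chromosome 9, 5298517 to 5307265), the caspase that inflammasomes activate to release interleukin-1 beta, was at 0.979, 0.807 and 1.47 CPM in young and 3.08, 2.76 and 3.21 CPM in old morphine mice. It rose by 1.51 ± 0.24 without (adjusted p = 0.0046) and 1.30 ± 0.24 with removal (adjusted p = 0.0314). Of 12 inflammasome genes it was the only one called in either fit, where 4.93% and 0.298% of all genes were higher. The list's median was -0.026 with removal. Nlrp5-ps (chromosome 7, 14530652 to 14622479), a transcribed pseudogene related to an NLR family gene of oocytes, was at 10.4, 9.38 and 12.1 CPM in young and 28.4, 38.9 and 39 CPM in old mice. Its rise of 1.75 ± 0.14 (adjusted p = 0.000113) and 1.71 ± 0.14 (adjusted p = 0.000215) had the smallest adjusted p with removal, shared with the gene model Gm765. Its reads, like those of Igkc, may be shared with near-identical copies.

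Some other immune and glial lists had positive medians with few or no calls. With the trend removed, 16 of 17 activated microglia genes were positive with a median of 0.287, 15 of 17 MHC class I genes with a median of 0.224, and 13 of 17 reactive astrocyte genes with a median of 0.203, and 0 members passed. Over all genes 0.411% passed and the median was 0.010. Summed levels of activated microglia genes overlapped, at 1383, 1131 and 1251 CPM in young and 1323, 1284 and 1111 CPM in old morphine mice. Those of reactive astrocyte genes also overlapped (217.9, 159.6 and 207.3 against 278.8, 263.8 and 201.9 CPM). MHC class I sums lay close without overlap (222.9, 195.4 and 223 against 250.3, 229.4 and 224 CPM). Without removal, Ctss, a lysosomal protease of microglia, passed at 0.53, and with it had 0.46 and adjusted p = 0.0809. C4b, a complement component, was at 20.9, 13.4 and 19.7 CPM in young and 42.1, 34.9 and 26.2 CPM in old morphine mice, a change of 0.95 ± 0.30 (adjusted p = 0.079) and 1.06 ± 0.28 (adjusted p = 0.172). Gfap, the intermediate filament of astrocytes, was at 89.3, 58.1 and 89 CPM against 123, 136 and 85.5 CPM, groups that overlapped (0.66 ± 0.28, adjusted p = 0.385 with removal). The 28 interferon-stimulated genes had a median of -0.025 with removal, with 12 positive, and under saline 0.465, with 28 positive.

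Growth, guidance and oligodendrocyte genes. Marcksl1 (chromosome 4, 129513581 to 129515985), which binds actin and membranes in growing processes, was at 48.6, 53.3 and 56.6 CPM in young and 33, 27.3 and 22.9 CPM in old morphine mice. The means were 52.8 ± 4.04 and 27.7 ± 5.04 CPM, and Marcksl1 changed by -0.93 ± 0.11 on the log2 scale without (adjusted p = 0.00189) and -0.74 ± 0.10 with removal (adjusted p = 0.00726). Dpysl3 (chromosome 18, 43320984 to 43438286), a collapsin response mediator of axon growth, was at 42.1, 40.9 and 49.2 CPM against 32.1, 26 and 30 CPM. It fell by 0.58 without and by 0.55 with removal. Nrep (chromosome 18, 33437019 to 33464029), a small protein linked to neural regeneration, was at 20.6, 26.3 and 29.5 CPM against 18.9, 15.8 and 17.7 CPM. It fell by 0.54 and by 0.59 (adjusted p = 0.0437 with removal). The lowest young and highest old library of Nrep lay close together, without overlap. Of 18 genes of growth and immature neurons, 5 were lower without removal (4.72% of all genes) and 3 with it (0.113% of all genes), the 2 that lost their call being Crmp1 and Tubb3, and the list's median went from -0.153 to -0.110.

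Gpr17 (chromosome 18, 31942997 to 31949636) was at 36.6, 33.8 and 38.5 CPM in young and 24.4, 23.8 and 25.6 CPM in old morphine mice, and fell by 0.56 without (adjusted p = 0.00189) and 0.48 with removal (adjusted p = 0.00726). Of 14 oligodendrocyte precursor genes, 2 were lower without removal and 1 with it, against 4.72% and 0.113% of all genes. Gpr17 was the 1 that passed in both fits. The list's median went from -0.179 to -0.047, and 6 of its 14 values were positive with removal. Olig1, a transcription factor of that lineage with a GC share of 61%, passed only without removal, and its change went from -0.42 to -0.19. Of 22 myelin genes, 2 were higher and 1 lower without removal, against 4.93% and 4.72% of all genes. With removal 0 of them passed, where 0.411% of all genes did, and their median was 0.012. Dcc (chromosome 18, 71253634 to 72351069), the netrin receptor that guides axons, was at 30.8, 30.5 and 35 CPM against 26.2, 23.7 and 23.2 CPM. It fell by 0.39 and by 0.50. Ntn5, a gene of the netrin family, was at 1.56, 2.01 and 1.26 CPM in young and 3.92, 3.94 and 2.71 CPM in old mice and rose by 1.10 ± 0.24 without and 1.37 ± 0.22 with removal (adjusted p = 0.0156).

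Lypd1 (chromosome 1, 125867622 to 125913101), which modulates nicotinic acetylcholine receptors, was at 47, 55.7 and 42 CPM in young and 28.2, 26.4 and 25.5 CPM in old morphine mice. Its log2 fold change was -0.86 ± 0.10 and -0.84 ± 0.11 (adjusted p = 0.00189 and 0.00726). Cyp26b1 (chromosome 6, 84571414 to 84593908), an enzyme that breaks down retinoic acid, was at 15.6, 17.8 and 16.8 CPM against 9.71, 7.89 and 8.48 CPM, a change of -0.94 ± 0.12 and -0.84 ± 0.12 (adjusted p = 0.0086 with removal). St3gal1 (chromosome 15, 67102875 to 67176830), a sialyltransferase, was at 29.2, 29 and 30.2 CPM against 19.8, 16.6 and 19.8 CPM. It fell by 0.65 and by 0.60 (adjusted p = 0.0156 with removal). The groups did not overlap in these 3 genes, but that was a condition of naming them and is no separate result. Tpbg, a membrane glycoprotein also called 5T4, fell from 10.9 ± 0.894 to 6.59 ± 0.903 CPM, at -0.74 with removal. Cdh13, a cadherin on the list of upper layer neurons, fell from 54.2 ± 1.96 to 39.6 ± 2.31 CPM, at -0.42 with removal. Of the 10 genes on that list, Cdh13 alone was called in either fit, where 4.72% and 0.113% of all genes were lower. The list went the other way, with a median of 0.119 without and 0.166 with removal, where 7 of 10 values were positive. Klhl1, a neuronal actin-binding protein, had a log2 fold change of -1.71 ± 0.35 at a low level, from 2.42 ± 0.502 to 0.837 ± 0.252 CPM, and stood just inside the threshold with adjusted p = 0.0487. Zxda, listed as a pseudogene with close copies, was at 10.8, 6.22 and 9.24 CPM against 2.77, 3.5 and 2.46 CPM, a change of -1.28 ± 0.22 with removal (adjusted p = 0.0268).

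The naming rule held 5 more rises. Ppl, periplakin, a linker of the cell cortex, went from 0.846 ± 0.115 to 2.21 ± 0.297 CPM (1.50 ± 0.21 with removal, adjusted p = 0.00726). Igfn1, a gene first described in muscle, went from 34.6 ± 2.39 to 64.6 ± 11.2 CPM (1.03 ± 0.13, adjusted p = 0.00969), and Abca8a, a lipid transporter, from 4.32 ± 0.198 to 9.39 ± 1.67 CPM (1.02 ± 0.20, adjusted p = 0.0437). Cfap46, a component of motile cilia, went from 3.26 ± 0.567 to 6.21 ± 0.919 CPM (0.97 ± 0.17, adjusted p = 0.0283). The 6 ependymal markers, which mark ciliated cells, had a median of -0.113 with removal. In either fit 0 of the 6 were called, where 9.65% and 0.411% of all genes passed. Their sum was 4.442 to 4.869 CPM in young and 2.867 to 4.949 CPM in old morphine mice. The zinc finger pseudogene Znf41-ps, at 3.54, 3.97 and 3.53 CPM against 9.56, 9.86 and 9.94 CPM, has a GC share of 34.3% and a change of 0.96 ± 0.13 with removal (adjusted p = 0.00726).

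**Figure D3:**
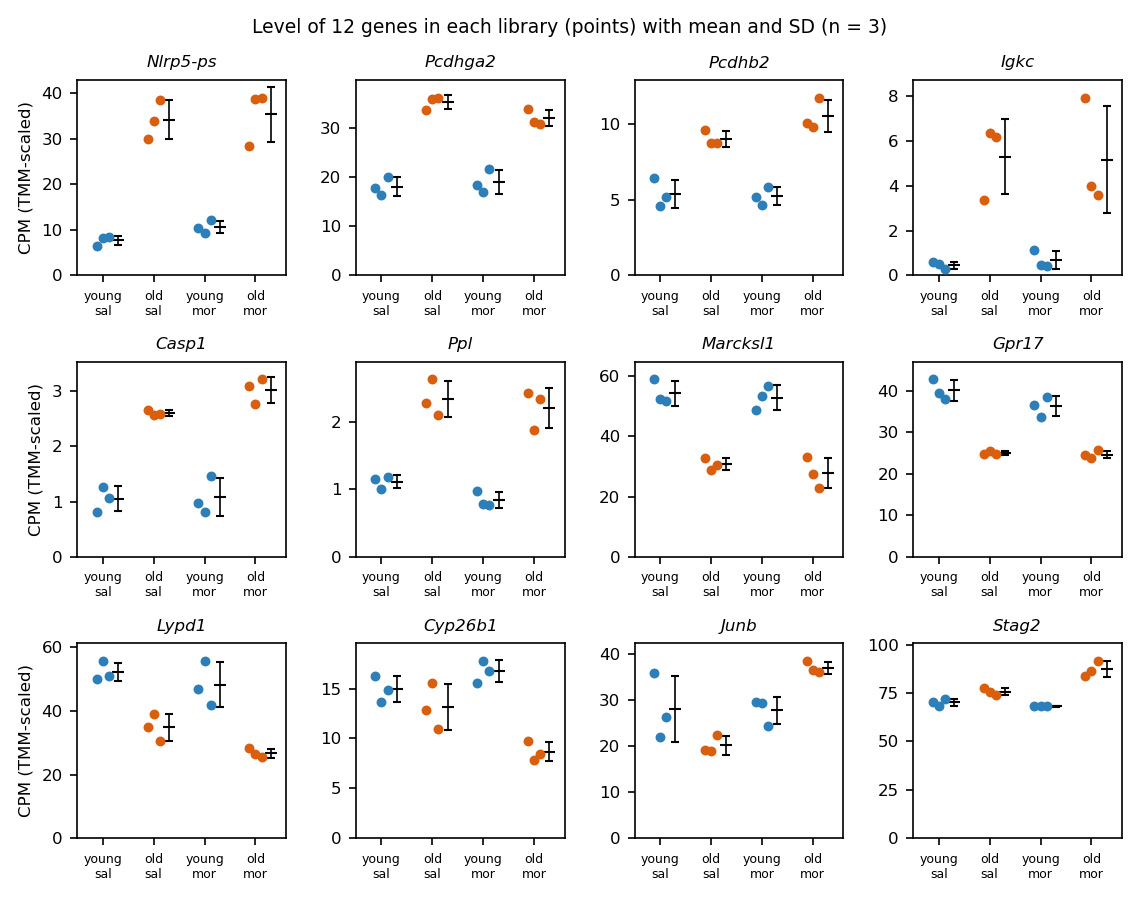
Level in CPM (vertical axes, from 0) of 12 genes in each of the 12 libraries (points; blue young, orange old; sal, saline; mor, morphine), with the mean and SD of each group of 3 beside them, before any trend was removed. Nlrp5-ps, the 2 protocadherins, Igkc, Casp1 and Ppl are higher and Marcksl1, Gpr17 and Lypd1 lower in old mice under both treatments, whereas the old morphine group of Cyp26b1 is the lowest and that of Stag2 the highest of the 4 groups, and that of Junb lies from 36.1 to 38.6 CPM, close above young saline replicate 1 at 35.9 CPM.

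Immediate early genes are switched on in neurons within minutes of activity. Of 36 members, 1 passed as lower without removal (Jun, at -0.35), where 4.72% of all genes did. With removal 1 passed as higher, where 0.298% of all genes did. The latter was Junb (chromosome 8, 84974484 to 84978718), an AP-1 transcription factor with a GC share of 62.6%. It was at 29.6, 29.3 and 24.4 CPM in young and 38.6, 36.5 and 36.1 CPM in old morphine mice, without overlap. Its change went from 0.41 ± 0.15 (adjusted p = 0.096) to 0.68 ± 0.12 (adjusted p = 0.0411), and it passed in 5 of 12 fits that each left out 1 library.

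The list's median was 0.233 before and 0.322 after removal, where 31 of 36 values were positive. Arc, a regulator of synaptic glutamate receptors, was at 124, 118 and 107 CPM in young and 144, 174 and 196 CPM in old morphine mice (0.76 ± 0.24, adjusted p = 0.231 with removal). Fos, the partner of Jun proteins, was at 11.6, 11.6 and 9.22 CPM against 13.2, 14.2 and 17.2 CPM (0.54 ± 0.24, adjusted p = 0.393), and Egr2, an activity-induced transcription factor, at 7.7, 5.85 and 5.23 CPM against 7.97, 8.13 and 10.4 CPM (0.53 ± 0.17, adjusted p = 0.21). The groups of Arc, Fos and Egr2 did not overlap as measured, where 33.09% of all genes had no overlap. None of them passed in either fit. Egr2 had a difference of the age effects of 1.43 between morphine and saline (unadjusted p = 6.5e-05, adjusted p = 0.289). Under saline the list's median was -0.124 with 11 of 36 values positive. Among 19 circadian clock genes, Bhlhe41, Rora, Nr1d2 and Hlf were higher without removal and 0 with it, against 4.93% and 0.298% of all genes. Per1, a core repressor of the clock, went from 0.12 to 0.32 with removal, with adjusted p = 0.0603.

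Opioid receptors and signalling. Oprm1 (chromosome 10, 6758506 to 7038198), the mu receptor, was at 3.59, 4.3 and 5.43 CPM in young and 4.08, 2.51 and 4.14 CPM in old morphine mice. These groups overlapped, and its change was -0.31 ± 0.23 with removal (adjusted p = 0.626). Oprk1 (chromosome 1, 5588466 to 5606131), the kappa receptor, was at 1.86, 2.57 and 2.01 CPM in young and 0.778, 0.641 and 0.623 CPM in old morphine mice, apart from each other. It passed without removal, at -1.66 ± 0.47 with adjusted p = 0.0422, and missed the threshold with it, at -1.83 ± 0.46 with adjusted p = 0.109, although the estimate was larger. Young saline libraries held 1.17, 0.548 and 0.516 CPM of it. Of the 28 genes of opioid receptors, ligands and signalling, 5 were lower without removal (4.72% of all genes) and 0 passed with it, where 0.113% of all genes were lower. The other 4 were Grk2 and Rgs9, which dampen receptor signals, Adcy5, an adenylyl cyclase, and Rgs14. Rgs9 went from -0.43 to -0.39, while Grk2 went from -0.21 to -0.05 and Adcy5 from -0.22 to -0.01; with length-scaled counts Grk2 had 0.144.

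Mitochondrial genes, encoded in the nucleus or in mitochondria. Of 75 nuclear genes for subunits of oxidative phosphorylation, 9 were lower without removal, where 4.72% of all genes were, and 2 with it, where 0.113% of all genes were. Ndufa4 (chromosome 6, 11900292 to 11907497), a subunit of cytochrome c oxidase, has a GC share of 44.1% and passed only with removal. As measured it was at 82.9, 84.6 and 78.9 CPM in young and 62.4, 64.3 and 82.3 CPM in old morphine mice, where old morphine replicate 3 overlapped the young group. With the trend removed, that library stood at 72 CPM and the young ones at 84.5 to 86.8 CPM, and the change went from -0.24 ± 0.08 (adjusted p = 0.0876) to -0.38 ± 0.06 (adjusted p = 0.0089). Uqcrfs1 (chromosome 13, 30540308 to 30545362), the Rieske protein of complex III, was at 62.3, 63.2 and 64.9 CPM against 50.3, 53 and 55.6 CPM and fell by 0.26 and by 0.28. The list's median went from -0.132 to -0.090, and 13 of 75 values were positive.

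The 13 mitochondrially encoded genes, with a median GC share of 37.12%, had a median of 0.499 before and 0.075 after removal. In either fit 0 of the 13 were called, where 9.65% and 0.411% of all genes passed. Their summed level was 35023, 39986 and 32453 CPM in young and 42120, 36269 and 61760 CPM in old morphine mice. These groups overlapped, and old morphine replicate 3, the library with the steepest GC trend, stood apart there.

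Glutamate receptors and channels. Grin3a (chromosome 4, 49661611 to 49845744), an NMDA receptor subunit that lowers calcium entry, was at 61.6, 66.7 and 68.7 CPM in young and 50.8, 52.6 and 57.4 CPM in old morphine mice. It fell by 0.29 without and by 0.31 with removal (adjusted p = 0.0481). It was 1 of 24 glutamate receptor genes lower with removal, and 4 were without it, against 0.113% and 4.72% of all genes. Grin1, the obligatory NMDA subunit, Grik5, a kainate receptor subunit, and Grm2, a presynaptic metabotropic receptor, were lower only without removal, and went from -0.26 to -0.06, from -0.32 to -0.09 and from -0.43 to -0.26. Their GC shares were 58.9, 60.8 and 58%. Of 15 GABA receptor genes, 1 was higher without removal and 0 passed with it, against 4.93% and 0.411% of all genes. That gene was Gabra2, with a GC share of 37.6%, at 0.27 without removal and -0.11 with it (adjusted p = 0.565). The change of sign did not occur when the trend was fitted on length alone (0.256). Of 30 potassium channels 4 were lower, and of 23 sodium and calcium channels 5 were lower and 1, Cacna2d1, was higher without removal, against 4.72% and 4.93% of all genes. With removal 0 of either list passed, where 0.411% of all genes did. Among the calcium channels, the T-type calcium channels Cacna1h and Cacna1i went from -0.41 to -0.20 and from -0.38 to -0.16.

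Lists called mostly without removal. Of 35 splicing factors, with a median GC share of 44.44%, 19 were higher without removal and 0 with it, against 4.93% and 0.298% of all genes. The list's median went from 0.248 to 0.106, with 27 of 35 values still positive. Rbm25, a regulator of splice site choice, was at 138, 152 and 152 CPM in young and 191, 193 and 199 CPM in old morphine mice, and its change went from 0.40 ± 0.06 (adjusted p = 0.0045) to 0.15 ± 0.05 (adjusted p = 0.202). Luc7l2, a factor of 5′ splice sites, went from 0.43 ± 0.08 to 0.17 ± 0.04 (adjusted p = 0.0913). Of 344 numbered zinc finger genes, with a median GC share of 45.84%, 62 were higher and 2 lower without removal, against 4.93% and 4.72% of all genes, and 1 was higher with it, against 0.298%. That gene was Zfp982 (chromosome 4, 147492417 to 147513486), which sits among close copies, at 2.86, 3.65 and 2.6 CPM in young and 6.32, 7.1 and 7.92 CPM in old mice (0.86 ± 0.15, adjusted p = 0.0291 with removal). Zfp945, with a GC share of 36.4%, went from 0.62 ± 0.09 to 0.18 ± 0.08.

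On the lower side, 11 of 37 synaptic adhesion genes were lower and 2 higher without removal, against 4.72% and 4.93% of all genes. With removal 0 of them passed, against 0.113% and 0.298%. The median GC share of this list was 51.62%, where that of all genes tested was 50.07%. Nrxn2, a presynaptic neurexin with a GC share of 63.1%, was at 584, 562 and 560 CPM in young and 475, 458 and 414 CPM in old morphine mice, and its change went from -0.34 ± 0.06 (adjusted p = 0.00605) to -0.07 ± 0.05 (adjusted p = 0.602). Slc17a7, the vesicular glutamate transporter of cortical excitatory neurons, went from -0.37 ± 0.06 to -0.19 ± 0.07 (adjusted p = 0.272). Of 39 proteasome subunits, 5 were lower without and 0 with removal, against 4.72% and 0.113% of all genes. Of 80 ribosomal protein genes, 6 were lower and 2 higher without removal, against 4.72% and 4.93% of all genes. Rpl21 alone was higher with removal (0.298% of all genes), at 155, 134 and 126 CPM in young and 157, 170 and 182 CPM in old mice (0.36 ± 0.07, adjusted p = 0.0467). Rpl21 has many processed copies, and its value is uncertain to that extent.

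**Figure D4:**
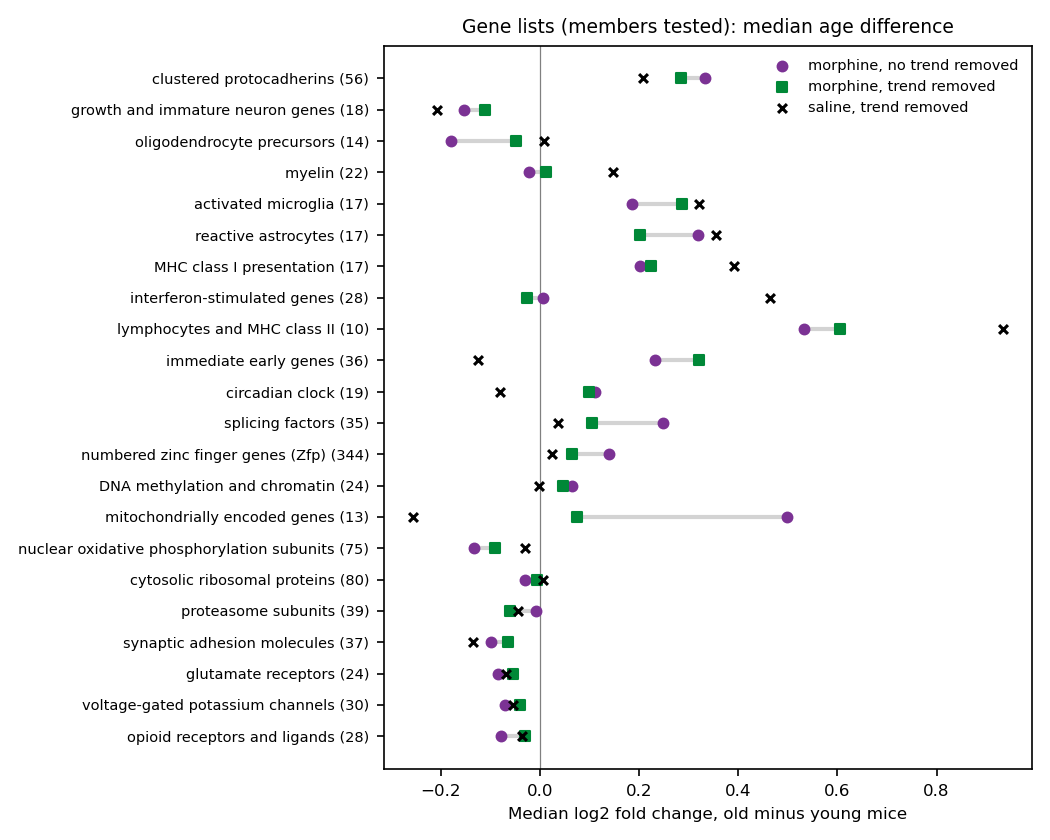
Median log2 fold change, old minus young mice (horizontal axis), of 22 gene lists (rows, with the number of members tested): under morphine without (violet circles) and with (green squares) removal of the trend, and under saline with removal (crosses). Mitochondrially encoded genes and splicing factors move most towards 0 with the removal, and clustered protocadherins stay at 0.285. Immediate early, interferon-stimulated, circadian clock and mitochondrially encoded genes are among the lists on opposite sides of 0 under morphine and saline with removal.

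The rest of the 69 genes, named here after their values were seen, included low genes with larger changes: Dlk1 (2.24 with removal, at a mean of 0.4 CPM), Cyp2e1 (1.79, at 0.863 CPM), Adam33 (0.81), Dmp1 (0.78), Six4 (0.72), Spag6 (0.62) and Trip10 (0.60). More abundant genes with smaller rises included the RNA-binding proteins Hnrnpr, Hnrnpd and Serbp1 (0.26, 0.32 and 0.29 with removal), the histone methyltransferase Kmt2a (0.29), the cohesin release factor Wapl (0.31), Auts2 (0.28), the imprinted zinc finger gene Plagl1 (0.43), the integrin subunit Itgav (0.30), Map7 (0.27), Ankrd12 (0.32), Crebrf (0.25) and Ass1 (0.50). Among the lower ones were Neto1, an auxiliary subunit of glutamate receptors (-0.35), Trpc4, a cation channel (-0.42), Slc7a4 (-0.33) and Gatd1 (-0.39). Called only with the removal were Ndufa4, Neto1, Junb, Auts2, Prag1 and Cpne9. At the threshold, Spopl, Klhl1 and Herc6 had adjusted p = 0.0487 each, and Mgat4c and Col4a2 just outside had adjusted p = 0.0503 and 0.0514.

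Set beside the saline comparison, in which 78 genes (0.464%) passed without and 93 (0.554%) with removal, most of the 69 pointed the same way. With the trend removed, 61 of the 69 (88.41%) had the same sign under saline, where 62.37% of all genes did, and 18 passed there too. For the 1558 genes that passed only without removal, the share with the same sign was 72.59%. Nlrp5-ps rose by 2.14 under saline and 1.71 under morphine, Pcdhga2 by 0.98 and 0.83, Igkc by 3.54 and 3.01 and Casp1 by 1.27 and 1.30. Marcksl1 had -0.78 and -0.74, Gpr17 -0.67 and -0.48 and Nrep -0.77 and -0.59. Since the 69 were chosen for their values under morphine, 60 of them having a smaller absolute change under saline is no comparison of the age effects.

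The difference of the age effects, tested as an interaction, passed for 0 of 16796 genes in either fit (0%), with 1808 and 977 genes at an unadjusted p of 0.05. DESeq2 called 115 and 22. Of the 8 genes among the 69 with opposite signs, Junb had -0.35 under saline, a difference of 1.03 (unadjusted p = 7.35e-05, adjusted p = 0.289, the smallest adjusted value of that test and shared with other genes). Young saline libraries held 35.9, 22 and 26.3 CPM of Junb and old saline libraries 19.1, 18.9 and 22.5 CPM. Zxda had 0.22 under saline, a difference of -1.51, and Plagl1 had -0.21, a difference of 0.65. Cyp26b1 (-0.17 under saline), Tpbg (-0.07) and Zfp982 (0.01) were near 0 there, with differences of -0.67, -0.68 and 0.85. None of these passed the test of the difference after adjustment.

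**Figure D5:**
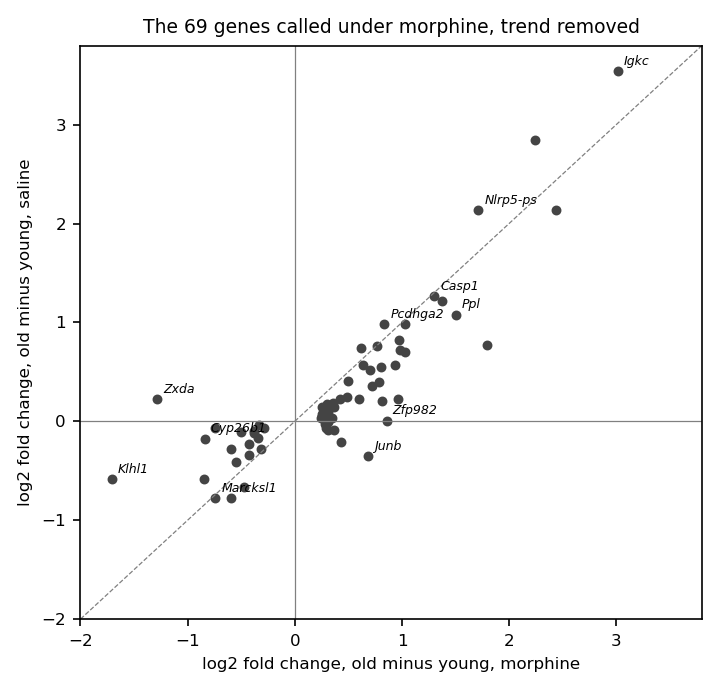
Log2 fold change, old minus young, under morphine (horizontal axis) and under saline (vertical axis) for the 69 genes called under morphine, both with the trend removed; the dashed line marks equal values. Of the genes, 61 have the same sign under both treatments, and Junb and Zxda are among the 8 that do not.

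Depth differed among the 6 libraries: 148856113 estimated reads in young morphine replicate 2, 20236452 in old morphine replicate 2 and 31678754 to 39872619 in the other 4, so that a floor of 3 reads lay between 0.0202 and 0.148 CPM. Markers of excitatory cortical neurons were present in every library, with sums of 7014 to 7677 CPM in young and 6382 to 6897 CPM in old morphine mice. Olfactory bulb markers summed to 145.4 CPM in young morphine replicate 3 and 143.2 CPM in old morphine replicate 1, and to 14.45 to 20.58 CPM in the other 4, and their part in the results was not tested.

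The number of calls rested on how the reads were summed and on single libraries. With counts scaled by the deposited effective lengths, which the authors' quantification estimated for each library, 25 genes passed without removal and 14 with it. The effective lengths used for this scaling exceeded the transcript's length for 13.7 to 17% of transcripts, and whether they hold a correction for base composition is not given in the sources used here. Without young morphine replicate 1, 2 or 3 the 69 became 25, 7 and 17, without old morphine replicate 1, 2 or 3 they became 36, 23 and 23, and without young saline replicate 1 or 3, which share the estimate of the spread, 110 and 24. Nlrp5-ps, Pcdhga2, Lypd1 and Gpr17 passed in all 12 of the fits that left out 1 library, as did Gm765, a gene model without a name of its own. Marcksl1, Pcdhb2, Pcdhb6, Pcdhb9, Pcdhb14, Ppl, Cyp26b1, Ndufa4 and Znf41-ps passed in 11, Igkc and Igfn1 in 10, St3gal1 in 9, Ntn5 in 8, Zxda in 7, and Casp1, Nrep, Dpysl3, Tpbg, Cdh13 and Junb in 5.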

How the data were processed

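Trizol extracts of prefrontal cortex were depleted of ribosomal RNA, and KAPA RNA HyperPrep libraries were read on a NovaSeq, per the labels' protocols. Salmon 1.4.0, DESeq2 1.30.1 and the build GRCm38 are named in the submitters' processing notes. For every transcript the deposited files hold an estimated count of reads, its TPM, its length and its effective length, and the last exceeded the length for 13.7 to 17% of transcripts. Its strand setting, bias options and annotation release are not given in the sources used here.

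Each file listed 113911 transcripts, of which 113694 were matched to 35272 genes in GENCODE M21, and the other 217 (0.0793 to 0.0994% of the reads) were dropped. Gene totals of the estimated counts were rounded to whole numbers. Replicate pairs differed by more than sampling noise (chi-square per degree of freedom 5.17 to 24.7). edgeR 4.0.16 (R 4.3.3) kept 16796 genes by filterByExpr, scaled by TMM, and fitted its quasi-likelihood test to 12 libraries with 1 coefficient for each of 4 groups and 8 residual degrees of freedom. SE was taken as the absolute log2 fold change over the square root of F. The common biological coefficient of variation was 11.09% without and 10.43% with the trend removed. For the removal, each library's deviation of log2 CPM (prior count 2) from the mean of 12 was fitted with natural splines of GC share and log2 length (5 degrees of freedom each, genes of at least 1 CPM), and the fit was added to the offsets; 16 genes without a GC share were not adjusted. GC share and length were means over a gene's transcripts weighted by the deposited TPM. The CPM of single libraries in the text have no trend removed unless stated.

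The comparison, the 53 gene lists and the naming rule were chosen with earlier results of these data known. Named are the 10 largest rises and falls among genes past the threshold in both fits that have a proper gene name, average 1 CPM or more and do not overlap between groups; the 5 smallest p among calls of 1 fit only; up to 4 members of each list holding a call; and 10 fixed genes. With 3 against 3, an exact permutation test of 1 gene cannot go below a two-sided p of 0.1. Alternatives were other scalings and filters, DESeq2 1.42.0, limma-voom (limma 3.58.1), length-scaled counts, coding genes alone, the deep library thinned, only the 6 libraries compared, a replicate block, other forms of the trend and each library left out. The fits were tested on simulated counts with known changes. Counting floors are 3 reads and cover counting error only.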

Additional observations from a re-analysis of the deposited data

How the results depend on the processing

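The trend on GC share separates the 2 groups, which limits what its removal can show, and the depth of old morphine replicate 2 limits genes near 0.148 CPM. For age under morphine, 69 genes with the trend removed became 355 with DESeq2, 14 with length-scaled counts, 108 with only the 6 libraries compared, 1542 with the trend fitted on length alone (Gabra2 then had 0.256) and 12 without young morphine replicate 1 and old morphine replicate 3 together, a choice made after seeing the data. The 1621 without removal became 25 with length-scaled counts (Grk2 then had 0.144) and 17 without those 2 libraries. Leaving out 1 library gave 384 to 2038 without and 7 to 110 with removal. With GC share alone, 3 or 8 degrees of freedom, other scalings, filters, coding genes alone, limma-voom or the thinned library, both counts stayed within 1.5 times; for each, the cause was not tested.

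Age under saline, with 78 genes without and 93 with removal, gave 389 and 426 with DESeq2, 15 and 14 with length-scaled counts, 36 and 39 with only its 6 libraries, 122 without a filter and no removal, 35 with limma-voom and removal, and 15 to 119 and 21 to 180 when 1 library was left out. The difference of the age effects gave 115 and 22 with DESeq2 and 0 to 1 in both fits when 1 library was left out.

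What a replicate number marks is not stated. The deviations of same-numbered young and old morphine libraries from their group means correlated at -0.038, -0.065 and -0.247. Those of differently numbered young and old morphine libraries ran from -0.331 to 0.420. Same-numbered young and old saline libraries correlated at 0.084, 0.198 and -0.056, and differently numbered ones from -0.175 to 0.086. These values come from groups of 3 with no trend removed, so pairing by number can be neither shown nor excluded. With the replicate block, age under morphine gave 1102 genes without and 21 with removal, and age under saline 35 and 36.

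The share of calls that were higher in old morphine mice was 51.08% without and 72.46% with removal. The latter was 59.55% without a filter, 62.25% with DESeq2, 48.7% with the trend on length alone, 58.33% without both steep libraries, 57.14% without young morphine replicate 2 and 60.87% without old morphine replicate 3. The former was 64% with length-scaled counts and 64.71% without both steep libraries. DESeq2's size factors and upper-quartile scaling moved neither by as much as 10 percentage points.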
